A study of Arabidopsis thaliana with 24 samples.

Results

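The dependence of the Heatin response on growth temperature was measured in 7-day-old seedlings of Arabidopsis thaliana Col-0. For every gene this interaction was the change with Heatin at 27°C minus the change with Heatin at 22°C, on the log2(normalized read count + 1) scale. It used the 12 samples of 7 days out of 24 in the series, and the other 12 samples were from seedlings of 2 days. The 4 groups of 3 replicates were wild-type seedlings on mock medium at 22°C, on Heatin medium at 22°C, on mock medium at 27°C and on Heatin medium at 27°C. Mock medium held 0.1% DMSO, the solvent that the Heatin medium (8.5 µM) also contained, so every group received DMSO. All seedlings grew in short days of 8 h light and 16 h dark, and whole seedlings were taken when the lights came on. Each sample combined the RNA of 3 batches that were grown and harvested separately, so p-values measure the spread between such pools. In whole seedlings, fewer cells of a type and less RNA per cell cannot be told apart.

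Heatin is a small molecule that came out of a screen, done in the warm, for compounds that lengthen the hypocotyl of a mutant lacking PIF4. Mild warmth lengthens hypocotyls and petioles, a growth programme called thermomorphogenesis, which runs through PIF4, a bHLH factor, auxin synthesis and cell wall loosening. An interaction gene is one whose response to the compound differs between the temperatures, and equally one whose response to temperature differs between compound and mock. Arabidopsis roots take up iron by reducing ferric chelates at the root surface and importing ferrous iron, and they secrete coumarins that mobilise iron. The genes of this system are switched on together by the bHLH factor FIT and its partners of the subgroup Ib bHLH family when iron is short.

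The response to Heatin differed between the temperatures for 182 of 23252 genes tested (0.783%; limma, adjusted p below 0.1). For 78 genes (0.335%) the response was more positive at 27°C, and for 104 (0.447%) it was more negative. Without adjustment, 1452 genes (6.24%) were positive and 1451 (6.24%) negative below 0.05. Heatin itself changed 574 genes at 22°C (2.47%) and 1260 at 27°C (5.42%), and temperature changed 14360 genes in mock (61.8%) and 14620 with Heatin (62.9%). These contrasts share samples with the interaction, so their values are set beside it as a description. Across all genes the median interaction was -0.00296 on the log2 scale, the median size was 0.14 and 49.3% of genes were positive. The interaction exceeded 2-fold for 53 of the 182 genes, 30 positive and 23 negative. Reads on genes numbered 19705950 to 55503049 per sample, and 1 read was worth 0.698 to 2.09 normalized read counts, so genes near the lower end are set by few reads. No member of the 26 root tip and stele markers tested, the 29 shoot apex and leaf markers or the 52 photosystem and antenna genes was called, and their median interactions were 0.02, 0.12 and 0.02. Summed root markers were 14283 to 15406 in mock and 13366 to 14496 with Heatin at 22°C, and 11533 to 12345 in mock and 11033 to 12049 with Heatin at 27°C, so compound and mock overlapped at each temperature. Summed shoot apex and leaf markers were lower with Heatin at 22°C, at 50391 to 53874 against 55713 to 58215 in mock, without overlap, and overlapped at 27°C, at 50244 to 60605 with Heatin and 49696 to 59752 in mock. Of these 29 markers, Heatin upregulated 1 and downregulated 2 at 22°C (1.39% and 1.08% of all genes). At 27°C it upregulated 3 and downregulated 1 of them (2.32% and 3.1% of all genes). Of the 26 root markers, Heatin upregulated 1 and downregulated 3 at 22°C, and upregulated 0 and downregulated 1 at 27°C. The part of these shifts in the interactions was not tested. Each named gene was also tested under 26 alternatives, among them voom, limma without a variance trend (without letting the variance follow the mean level) and 1 fit of all 24 samples. Of the 41 genes named by rule, 10 were called without a variance trend, 11 with all 24 samples in 1 fit and 27 with voom.

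The positive genes ran from 0.31 to 4.02 with a median of 0.81, and the negative genes from -3.88 to -0.29 with a median of -0.74. Among the 78 positive genes the median change with Heatin was -0.19 at 22°C and 0.64 at 27°C. The median change with temperature among them was -0.76 in mock and 0.11 with Heatin. Among the 104 negative genes Heatin gave a median of 0.21 at 22°C and -0.52 at 27°C, and temperature gave 0.29 in mock and -0.34 with Heatin. More positive genes were thus lower than higher at 27°C in mock. At 27°C the 3 Heatin samples lay above all 3 mock samples for 68 of the 78 positive genes and below them for 83 of the 104 negative genes, against 10.5% of all genes above and 11.8% below. At 22°C they lay below mock for 38 positive genes and above mock for 54 negative genes, against 9.49% of all genes below and 8.29% above. Both orders at once, so that the response turned over between temperatures, held for 29 positive and 33 negative genes. Over all 23252 genes tested, 132 (0.568%) had the first of these patterns and 136 (0.585%) the second. The calls were made on the same samples, so these orders describe the called genes and do not add support to the calls.

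**Figure D1:**
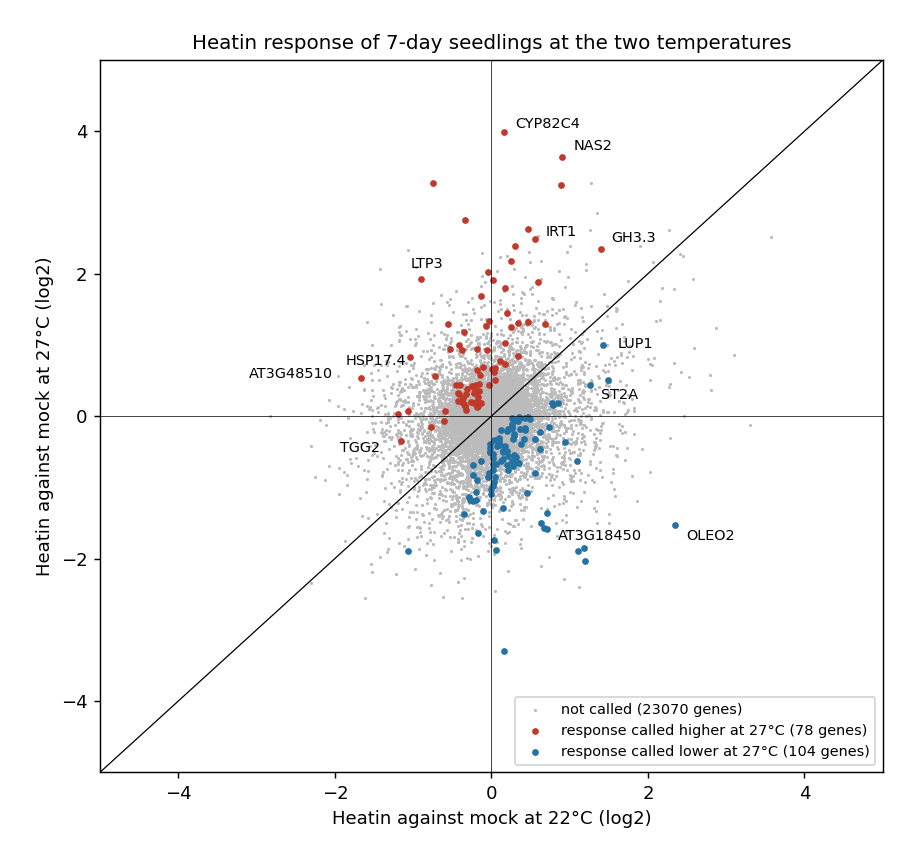
Change with Heatin at 22°C (x axis) against the change with Heatin at 27°C (y axis), both as log2 differences from mock, for the 23252 genes tested. The 78 genes whose response was more positive at 27°C (red) lie above the diagonal of equal response, the 104 more negative genes (blue) below it, and the genes not called are grey.

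Iron acquisition held the largest number of interaction genes of any list described here. Of 36 genes of iron uptake, transport and storage tested, 7 were called positive and 0 negative, where 0.335% of all genes were called positive. The median interaction of the list was 0.31, against -0.00296 over all genes. Unadjusted p-values were below 0.05 for 17 positive and 2 negative members, against 6.24% of all genes in each direction. The list's median change with Heatin was 0.05 at 22°C and 0.33 at 27°C, and its median change with temperature was -0.52 in mock and -0.24 with Heatin. Heatin upregulated 3 members at 22°C (1.39% of all genes), and at 27°C it upregulated 17 (2.32% of all genes) and downregulated 3 (3.1%). The members were chosen with earlier results of these data known, and the counts describe the list.

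The 250 bases before the annotated start of 4 called iron genes, which act in reduction, import, coumarin synthesis and chelation, are shown because these genes changed together, each with its strand and position in the RefSeq genome TAIR10.1. IRT1 lies on the plus strand (chr4:10707094-10707343), FRO2 on the plus strand (chr1:208745-208994), CYP82C4 on the plus strand (chr4:15451738-15451987) and NAS2 on the minus strand (chr5:22712442-22712691). Capitals mark the motifs found on either strand. In CYP82C4 these were the auxin response element TGTCTC, once on each strand, and the MYB core ACCTACC on the opposite strand, and in NAS2 the PBE-box CATGTG on the opposite strand. IRT1 and FRO2 held none of the searched letters in this window.
IRT1: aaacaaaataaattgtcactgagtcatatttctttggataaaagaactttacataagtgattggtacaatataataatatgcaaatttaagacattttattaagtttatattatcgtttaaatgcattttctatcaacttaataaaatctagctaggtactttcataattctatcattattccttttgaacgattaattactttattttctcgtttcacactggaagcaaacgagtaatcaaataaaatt
FRO2: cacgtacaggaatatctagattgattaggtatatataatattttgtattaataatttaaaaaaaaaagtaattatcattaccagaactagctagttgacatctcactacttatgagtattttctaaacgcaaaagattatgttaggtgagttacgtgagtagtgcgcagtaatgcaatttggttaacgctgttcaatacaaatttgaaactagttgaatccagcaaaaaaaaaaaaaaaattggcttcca
CYP82C4: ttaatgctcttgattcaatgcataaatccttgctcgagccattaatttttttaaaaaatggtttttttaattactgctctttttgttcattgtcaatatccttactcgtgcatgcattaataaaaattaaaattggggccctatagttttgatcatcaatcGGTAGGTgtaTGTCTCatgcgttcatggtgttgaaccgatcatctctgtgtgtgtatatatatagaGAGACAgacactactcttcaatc
NAS2: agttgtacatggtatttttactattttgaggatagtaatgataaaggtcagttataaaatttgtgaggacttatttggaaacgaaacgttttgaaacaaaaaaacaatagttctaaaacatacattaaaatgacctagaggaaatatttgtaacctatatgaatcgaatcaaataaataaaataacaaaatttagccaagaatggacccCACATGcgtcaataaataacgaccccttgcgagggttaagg

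At the root surface, FRO2 reduces ferric chelates. FRO2 (chr1:208995-213082) gave normalized read counts of 1191, 719 and 815 in mock at 22°C, 861, 679.6 and 1252 with Heatin at 22°C, 138, 98.3 and 161 in mock at 27°C and 415, 508 and 552 with Heatin at 27°C. All mock samples at 27°C lay far below every other sample, and the Heatin and mock samples overlapped at 22°C. Its interaction was 1.88 ± 0.31 (SE; limma, adjusted p = 0.0144), from a change with Heatin of 0.02 ± 0.22 (adjusted p = 0.979) at 22°C and 1.91 ± 0.22 (adjusted p = 0.000108) at 27°C. IRT1 (chr4:10707344-10709015), the main importer of ferrous iron into root cells, gave 2416, 1582 and 1579 in mock at 22°C, 2717, 2154 and 3256 with Heatin at 22°C, 487, 176 and 380.3 in mock at 27°C and 1765, 1555 and 2096 with Heatin at 27°C. The Heatin samples at 27°C reached the range of the mock samples at 22°C, whereas mock at 27°C was lower in each of its 3 samples. The interaction of IRT1 was 1.93 ± 0.38 (SE; limma, adjusted p = 0.0435). Temperature changed IRT1 by -2.51 ± 0.27 (adjusted p = 9.83e-07) in mock and by -0.58 ± 0.27 (adjusted p = 0.0827) with Heatin. FRO2 was called in all 12 fits that left out 1 library (adjusted p = 0.00672 to 0.0412). The call of FRO2 was lost without a variance trend (adjusted p = 0.149) and with robust variance (adjusted p = 0.109). IRT1 was called in 11 of 12 leave-one-out fits but not without Heatin 22°C replicate 2 (adjusted p = 0.12). The call of IRT1 was lost with all 24 samples in 1 fit (adjusted p = 0.413), without a variance trend (adjusted p = 0.227) and with robust variance (adjusted p = 0.213).

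CYP82C4 (chr4:15451988-15454224), a cytochrome P450 that hydroxylates the iron-mobilising coumarin fraxetin, had the largest positive interaction of the called genes with a mean of at least 10. Its counts were 367, 183 and 209.7 in mock at 22°C, 249, 221 and 359.6 with Heatin at 22°C, 9.55, 5.67 and 4.89 in mock at 27°C and 111, 127 and 117 with Heatin at 27°C. Mock at 27°C fell to single-digit counts in each sample, Heatin at 27°C was higher in every sample, and the groups at 22°C overlapped. The interaction was 3.83 ± 0.37 (SE; limma, adjusted p = 0.00021), with 0.16 ± 0.26 (adjusted p = 0.845) at 22°C and 3.99 ± 0.26 (adjusted p = 2.7e-07) at 27°C. NAS2 (chr5:22711141-22712441), which makes the metal chelator nicotianamine, gave 367, 230.4 and 296 in mock at 22°C, 651, 427 and 596 with Heatin at 22°C, 12.3, 12.3 and 9.07 in mock at 27°C and 210.5, 114 and 140.4 with Heatin at 27°C. Heatin samples were above mock samples at both temperatures, with a wider gap at 27°C. Its interaction was 2.73 ± 0.32 (SE; limma, adjusted p = 0.0014), with 0.91 ± 0.22 (adjusted p = 0.0615) at 22°C and 3.64 ± 0.22 (adjusted p = 1.86e-07) at 27°C. Both genes were called in all 12 leave-one-out fits, CYP82C4 with adjusted p = 0.000186 to 0.00156 and NAS2 with 0.000537 to 0.00823. Of the 50-base exon windows of CYP82C4, 91.0% were unique in the genome.

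The regulators moved in the same direction for the 2 subgroup Ib members called. BHLH101 gave 150.1, 128 and 136 in mock at 22°C, 172, 138 and 161 with Heatin at 22°C, 131, 124 and 142 in mock at 27°C and 257, 269 and 286 with Heatin at 27°C, with Heatin samples above mock at 27°C and overlapping ranges at 22°C. Its interaction was 0.85 ± 0.16 (SE; limma, adjusted p = 0.034), and it was called in all 12 fits that left out 1 library (adjusted p = 0.0387 to 0.0873). The call of BHLH101 was lost with all 24 samples in 1 fit (adjusted p = 0.656). BHLH100 is expressed at few counts, with 16.4, 16.99 and 18.7 in mock at 22°C, 12.2, 18.6 and 20.9 with Heatin at 22°C, 8.19, 4.72 and 9.07 in mock at 27°C and 24.9, 25.3 and 51.4 with Heatin at 27°C. The interaction of BHLH100 was 2.07 ± 0.47 (SE; limma, adjusted p = 0.0815). BHLH100 was called in 3 of 12 leave-one-out fits (adjusted p = 0.0871 to 0.17) and in 12 of all 26 alternatives. The other subgroup Ib members, bHLH38 and bHLH39, had interactions of 0.63 ± 0.23 (adjusted p = 0.288) and 0.50 ± 0.22 (adjusted p = 0.357) and did not pass. Heatin upregulated both at each temperature, by 0.87 and 1.06 at 22°C and by 1.496 and 1.56 at 27°C. FIT, which is under the name FRU in the annotation and was looked up after its values were seen, gave 779, 612 and 777 in mock at 22°C, 952, 821 and 1009.9 with Heatin at 22°C, 529, 512 and 459.9 in mock at 27°C and 500.4, 410.1 and 501 with Heatin at 27°C. FIT had an interaction of -0.46 ± 0.15 (adjusted p = 0.251), opposite in sign to its called partners and not past the threshold.

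Of the other iron genes, FER3, a ferritin that stores iron in plastids and a gene picked after its values were seen, was called with a small interaction of 0.46 ± 0.11 (SE; limma, adjusted p = 0.0878). FER3 gave 884 to 1072 in mock and 978 to 996 with Heatin at 22°C, and 575 to 659 in mock and 829.8 to 871 with Heatin at 27°C, and it was called in 1 of 12 leave-one-out fits (adjusted p = 0.0295 to 0.19). NAS1, another nicotianamine synthase, just missed the threshold at 0.91 ± 0.22 (adjusted p = 0.102), with 1287, 893 and 938 in mock at 22°C, 1290.0, 1106 and 1338 with Heatin at 22°C, 359, 297 and 353 in mock at 27°C and 871, 573 and 881 with Heatin at 27°C. The mock samples at 27°C were the lowest for NAS1 too. Of the other reductase genes, FRO5 had an interaction of -1.92 ± 0.55 (adjusted p = 0.168) and FRO4 of -0.94 ± 0.30 (adjusted p = 0.229), neither past the threshold, and both were downregulated by Heatin at 27°C, with changes of -2.54 ± 0.39 (adjusted p = 0.0012) for FRO5 and -1.18 ± 0.21 (adjusted p = 0.00423) for FRO4. FRO3, FRO6 and PYE, a bHLH factor of iron distribution, had interactions of 0.12, 0.02 and -0.03. The vacuolar iron transporter family member AT1G21140 gave 1.54 ± 0.51 (adjusted p = 0.243), and the ferritin FER1 0.38 ± 0.15 (adjusted p = 0.331), neither past the threshold.

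**Figure D2:**
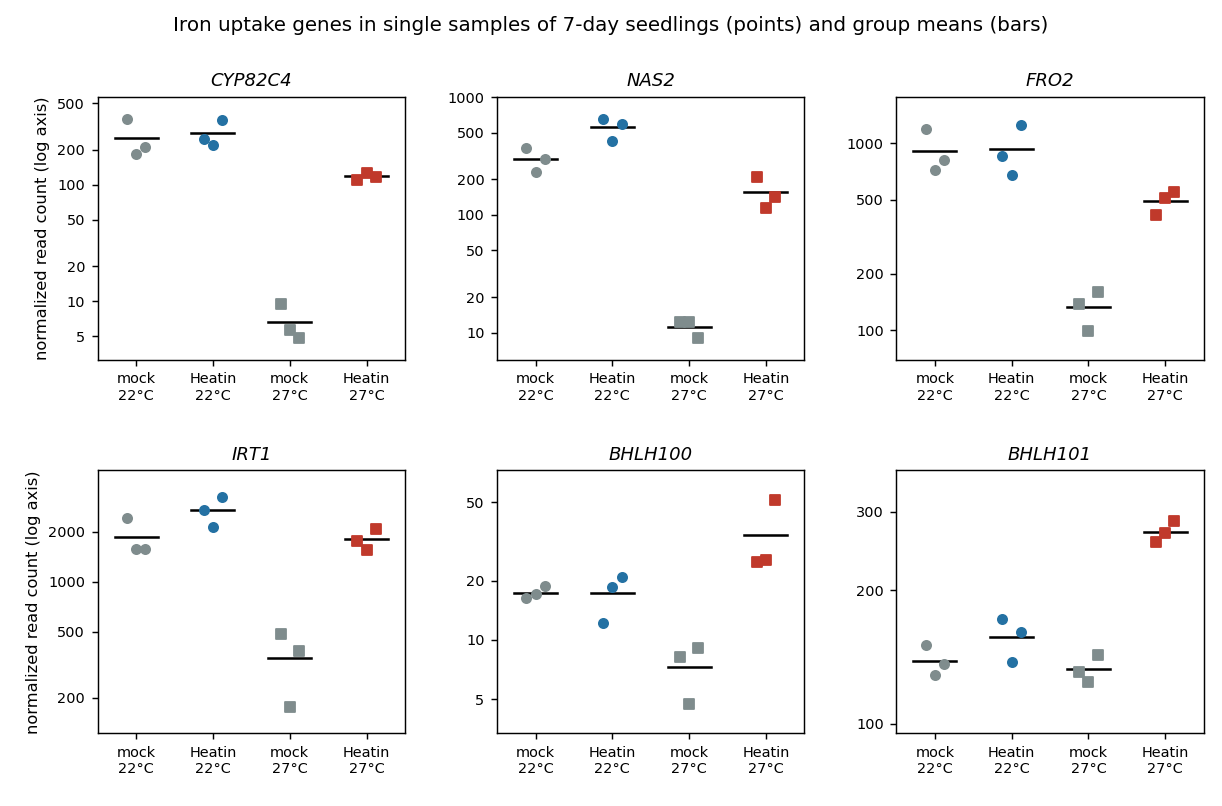
Normalized read counts of the iron genes CYP82C4, NAS2, FRO2, IRT1, BHLH100 and BHLH101 in each 7-day sample (points, log axis) by group, with bars at the group means. In 5 of the 6 genes the mock samples at 27°C were the lowest group (IRT1 176 to 487 in mock and 1555 to 2096 with Heatin at 27°C), and for BHLH101 the mock groups overlapped.

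Auxin genes were called singly. GH3.3, which conjugates auxin to amino acids, gave 495, 553 and 438 in mock at 22°C, 1424, 1204 and 1282 with Heatin at 22°C, 943, 776 and 1225 in mock at 27°C and 5272, 5387 and 4149.7 with Heatin at 27°C, so the Heatin samples were above mock at both temperatures. Heatin changed it by 1.396 ± 0.14 (adjusted p = 4.03e-05) at 22°C and 2.35 ± 0.14 (adjusted p = 1.62e-07) at 27°C, and the interaction was 0.95 ± 0.19 (SE; limma, adjusted p = 0.0488). GH3.3 was called in 8 of 12 leave-one-out fits but not without mock 22°C replicate 2 (adjusted p = 0.143), mock 27°C replicate 1 (adjusted p = 0.123), Heatin 22°C replicate 2 (adjusted p = 0.131) or Heatin 27°C replicate 1 (adjusted p = 0.123). In all, GH3.3 was called in 20 of 26 alternatives. It was the 1 of 8 GH3 genes tested that was called, and the family's median interaction was 0.45. GH3.1 gave 1.26 ± 0.34 (adjusted p = 0.141) and GH3.9 0.62 ± 0.27 (adjusted p = 0.364), and BRU6 went the other way at -0.65 ± 0.24 (adjusted p = 0.298), all 3 short of the threshold. Below 0.05 unadjusted, 4 members were positive and 1 negative, against 6.24% of all genes in each direction. Of 72 SAUR genes, small auxin-induced proteins of which some promote cell elongation, 1 was called positive and 1 negative, with a median of -0.02. The called shares of all genes were 0.335% positive and 0.447% negative. The SAUR gene AT5G53590 gave 347 to 378 in mock and 355 to 375 with Heatin at 22°C, and 218 to 288 in mock and 369 to 406 with Heatin at 27°C, an interaction of 0.59 ± 0.13 (SE; limma, adjusted p = 0.0776) that was called in 3 of 12 leave-one-out fits (adjusted p = 0.056 to 0.19) and in 13 of all 26 alternatives. The SAUR gene AT4G34790 gave 56.0 to 69.6 in mock and 89.9 to 104 with Heatin at 22°C, and 73.7 to 81.3 in mock and 43.7 to 72.6 with Heatin at 27°C, with its Heatin samples above mock at 22°C and below mock at 27°C. The interaction of AT4G34790 was -1.08 ± 0.25 (SE; limma, adjusted p = 0.0885). AT4G34790 was called in 2 of 12 leave-one-out fits (adjusted p = 0.0338 to 0.209) and in 8 of all 26 alternatives. No gene of the 28 Aux/IAA repressors, 23 of auxin synthesis, 21 auxin carriers and receptors or 39 of PIF growth and light signalling was called, with medians of -0.07, 0.11, 0.07 and 0.05.

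Of the cell wall lists, the expansins held 2 positive and 4 negative members below 0.05 unadjusted and the XTH genes 5 and 7. Over all genes, 6.24% passed that threshold in each direction, and 0.335% were called positive and 0.447% negative. EXPA4, an expansin that loosens cellulose and xyloglucan contacts, gave 1239, 1165 and 1256 in mock at 22°C, 1434, 1338 and 1589 with Heatin at 22°C, 914, 787 and 899 in mock at 27°C and 2564, 1689.7 and 2028 with Heatin at 27°C. The Heatin samples of EXPA4 were above mock at both temperatures. Its interaction was 1.00 ± 0.16 (SE; limma, adjusted p = 0.0105), with 0.25 ± 0.11 (adjusted p = 0.367) at 22°C and 1.254 ± 0.11 (adjusted p = 8.97e-06) at 27°C, and it was called in all 12 fits that left out 1 library (adjusted p = 0.00131 to 0.0399). The call of EXPA4 was lost without a variance trend (adjusted p = 0.127). EXPB3, a beta-expansin, gave 402, 325 and 382 in mock at 22°C, 555, 485 and 638 with Heatin at 22°C, 115, 93.5 and 140.3 in mock at 27°C and 583, 298 and 445 with Heatin at 27°C. Its mock samples at 27°C were the lowest, and its interaction was 1.29 ± 0.28 (SE; limma, adjusted p = 0.0605). EXPB3 was called in 3 of 12 leave-one-out fits (adjusted p = 0.009 to 0.156) and in 14 of all 26 alternatives. These were the 2 called of 27 expansins tested, whose median was -0.11. XTH18, which cuts and rejoins xyloglucan, was the 1 of 31 XTH genes called, at 0.63 ± 0.13 (SE; limma, adjusted p = 0.0435), with 761 to 830.3 in mock and 764 to 902 with Heatin at 22°C, and 572 to 762 in mock and 1038 to 1077 with Heatin at 27°C. Heatin changed XTH18 by 0.05 at 22°C and by 0.68 at 27°C. The list's median was -0.02, and XTH18 was called in 10 of 12 leave-one-out fits but not without mock 22°C replicate 3 (adjusted p = 0.11) or Heatin 22°C replicate 2 (adjusted p = 0.112). The call of XTH18 was lost with all 24 samples in 1 fit (adjusted p = 0.311) and without a variance trend (adjusted p = 0.188).

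PME61, a pectin methylesterase that removes methyl groups from pectin, gave 9.55, 9.44 and 23.0 in mock at 22°C, 13.5, 26.04 and 16.7 with Heatin at 22°C, 6.82, 7.56 and 6.98 in mock at 27°C and 70.2, 41.2 and 41.6 with Heatin at 27°C. The Heatin samples at 27°C were above every other sample. Its interaction was 2.17 ± 0.50 (SE; limma, adjusted p = 0.0861). PME61 was called in 2 of 12 leave-one-out fits (adjusted p = 0.0838 to 0.196) and in 11 of all 26 alternatives. CEL3, an endoglucanase of the cellulase family, gave 20.46, 30.2 and 34.5 in mock at 22°C, 31.1, 33.5 and 35.5 with Heatin at 22°C, 15.0, 28.3 and 20.2 in mock at 27°C and 126, 68.1 and 105 with Heatin at 27°C, again with Heatin at 27°C highest. The interaction of CEL3 was 1.93 ± 0.39 (SE; limma, adjusted p = 0.0449). CEL3 was called in 6 of 12 leave-one-out fits (adjusted p = 0.0251 to 0.124) and in 18 of all 26 alternatives. AGP3, an arabinogalactan protein of the cell wall, went the other way, with 132, 164 and 111 in mock at 22°C, 120.5, 145 and 96.2 with Heatin at 22°C, 50.5, 54.8 and 53.7 in mock at 27°C and 10.9, 15.8 and 24.5 with Heatin at 27°C. Heatin at 27°C was the lowest group of AGP3, and its interaction was -1.48 ± 0.34 (SE; limma, adjusted p = 0.0885). AGP3 was called in 2 of 12 leave-one-out fits (adjusted p = 0.0225 to 0.222) and in 11 of all 26 alternatives. Chosen after the values were seen, the proline-rich wall protein gene PRP2 had the smallest p-value of the 182 called genes, at 1.36 ± 0.12 (SE; limma, adjusted p = 0.000142). PRP2 gave 1083, 1119.7 and 1119 in mock at 22°C, 1039.6, 1057 and 1163 with Heatin at 22°C, 297, 290.1 and 319.6 in mock at 27°C and 702, 892 and 707 with Heatin at 27°C, with mock at 27°C the lowest group, and it was called in all 12 fits that left out 1 library (adjusted p = 4.01e-05 to 0.00127). Also chosen after the values were seen, PME5, another pectin methylesterase, had an interaction of 0.61 ± 0.10 (adjusted p = 0.00957), from -0.77 ± 0.07 (adjusted p = 1.42e-05) at 22°C and -0.16 ± 0.07 (adjusted p = 0.253) at 27°C. The 25 extensins and root hair wall genes held no called gene and had a median of -0.60. Below 0.05 unadjusted, 0 of them were positive and 6 negative, against 6.24% of all genes in each direction. Heatin downregulated 11 of them at 27°C, where it downregulated 3.1% of all genes.

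Among 32 heat shock factors and chaperones, 1 was called, HSP17.4, a small heat shock protein that keeps unfolding proteins soluble. HSP17.4 gave 45.0, 64.2 and 47.4 in mock at 22°C, 28.4, 33.5 and 31.4 with Heatin at 22°C, 401, 482 and 449 in mock at 27°C and 574, 803 and 611 with Heatin at 27°C. Both groups at 27°C were far above those at 22°C, and the Heatin samples lay below mock at 22°C and above mock at 27°C. Its interaction was 1.28 ± 0.22 (SE; limma, adjusted p = 0.0193), with -0.71 ± 0.15 (adjusted p = 0.031) at 22°C and 0.56 ± 0.15 (adjusted p = 0.0565) at 27°C. HSP17.4 was called in all 12 fits that left out 1 library (adjusted p = 0.0211 to 0.0652). The call of HSP17.4 was lost with all 24 samples in 1 fit (adjusted p = 0.554) and with voom (adjusted p = 0.189). Temperature changed HSP17.4 by 3.08 in mock and 4.36 with Heatin. The median of the list was 0.20, with 4 positive and 2 negative members below 0.05 unadjusted. Among all genes tested, 6.24% passed that threshold in each direction, and 0.335% were called positive. The small heat shock proteins HSP17.6II, HSP17.6A and HSP18.2 gave 1.68, 0.88 and 0.28 and did not pass, and HSP101 gave 0.21 ± 0.08 (adjusted p = 0.328). Outside the list and chosen after the values were seen, the chaperones Hsp70b (0.63 ± 0.12, adjusted p = 0.0311) and Hsp70-2 (0.67 ± 0.14, adjusted p = 0.0495) were called, Hsp70b in all 12 leave-one-out fits and Hsp70-2 in 8. Hsp70b gave 356, 378 and 365 in mock at 22°C, 295, 327 and 339 with Heatin at 22°C, 615, 629 and 586 in mock at 27°C and 761, 936 and 794 with Heatin at 27°C, with Heatin below mock at 22°C and above mock at 27°C.

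Of the nutrient lists, nitrate held 2 positive and 2 negative members below 0.05 unadjusted, phosphate 4 and 2, and sulfur 4 and 2. That threshold was passed by 6.24% of all genes in each direction, and 0.335% were called positive and 0.447% negative. NRT1.5, which loads nitrate into the xylem, gave 38242, 36706 and 37959.9 in mock at 22°C, 40832, 40114 and 41227 with Heatin at 22°C, 35469, 38267 and 34484 in mock at 27°C and 29049, 24526 and 28087 with Heatin at 27°C. Its Heatin samples were above mock at 22°C and below mock at 27°C. The interaction of NRT1.5 was -0.52 ± 0.10 (SE; limma, adjusted p = 0.0281), from 0.11 ± 0.07 (adjusted p = 0.525) at 22°C and -0.41 ± 0.07 (adjusted p = 0.00228) at 27°C. NRT1.5 was called in all 12 fits that left out 1 library (adjusted p = 0.0265 to 0.0994). The call of NRT1.5 was lost with all 24 samples in 1 fit (adjusted p = 0.741) and without a variance trend (adjusted p = 0.11). It was the 1 called of 26 nitrate genes, whose median was 0.08. PHT1;1, a root phosphate importer, gave 1832 to 1878 in mock and 1736 to 1972 with Heatin at 22°C, and 1818 to 1869 in mock and 1249 to 1453 with Heatin at 27°C, with Heatin below mock at 27°C. Its interaction was -0.43 ± 0.09 (SE; limma, adjusted p = 0.0492). PHT1;1 was called in 10 of 12 leave-one-out fits but not without mock 22°C replicate 2 (adjusted p = 0.125) or mock 27°C replicate 1 (adjusted p = 0.122). The call of PHT1;1 was lost with all 24 samples in 1 fit (adjusted p = 0.393) and without a variance trend (adjusted p = 0.179). Only 57.5% of the 50-base exon windows of PHT1;1 were unique. Reads with non-unique alignments were tallied apart from the genes, so its counts rest on part of its sequence. It was the 1 called of 22 phosphate starvation genes.

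APS3 and SULTR3;4, 2 sulfur list genes, were called in opposite directions among 22 (0.335% of all genes were called positive and 0.447% negative). APS3, an ATP sulfurylase that starts sulfate assimilation, gave 434, 414 and 401 in mock at 22°C, 482, 517 and 531 with Heatin at 22°C, 353, 336 and 356 in mock at 27°C and 295, 274 and 294 with Heatin at 27°C, with Heatin above mock at 22°C and below mock at 27°C. The interaction of APS3 was -0.57 ± 0.11 (SE; limma, adjusted p = 0.0281), from 0.29 ± 0.07 (adjusted p = 0.0694) at 22°C and -0.28 ± 0.07 (adjusted p = 0.0515) at 27°C. APS3 was called in all 12 fits that left out 1 library (adjusted p = 0.0387 to 0.0824). SULTR3;4, a member of the sulfate transporter family that is known in Arabidopsis for distributing phosphate, gave 367, 446 and 392.2 in mock at 22°C, 286, 342 and 341 with Heatin at 22°C, 291, 287 and 309 in mock at 27°C and 374, 382 and 397 with Heatin at 27°C. Its order was the reverse, Heatin below mock at 22°C and above mock at 27°C. The interaction of SULTR3;4 was 0.69 ± 0.13 (SE; limma, adjusted p = 0.034). SULTR3;4 was called in 11 of 12 leave-one-out fits but not without mock 22°C replicate 2 (adjusted p = 0.103). The call of SULTR3;4 was lost with all 24 samples in 1 fit (adjusted p = 0.169) and without a variance trend (adjusted p = 0.11). Chosen after the values were seen, the zinc transporter ZIP3 (-1.09 ± 0.14, adjusted p = 0.00297), the potassium channel SKOR, which loads potassium into the xylem (-0.96 ± 0.14, adjusted p = 0.00727), ZIP2 (-0.95 ± 0.21, adjusted p = 0.0706) and the anion channel homologue SLAH1 (-1.23 ± 0.25, adjusted p = 0.0449) were also negative. ZIP3 and SKOR were called in all 12 leave-one-out fits, SLAH1 in 9 and ZIP2 in 5. SKOR gave 457, 415 and 489.9 in mock at 22°C, 447, 482 and 466 with Heatin at 22°C, 307, 362 and 295 in mock at 27°C and 176, 149 and 182 with Heatin at 27°C, with Heatin at 27°C the lowest group.

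**Figure D3:**
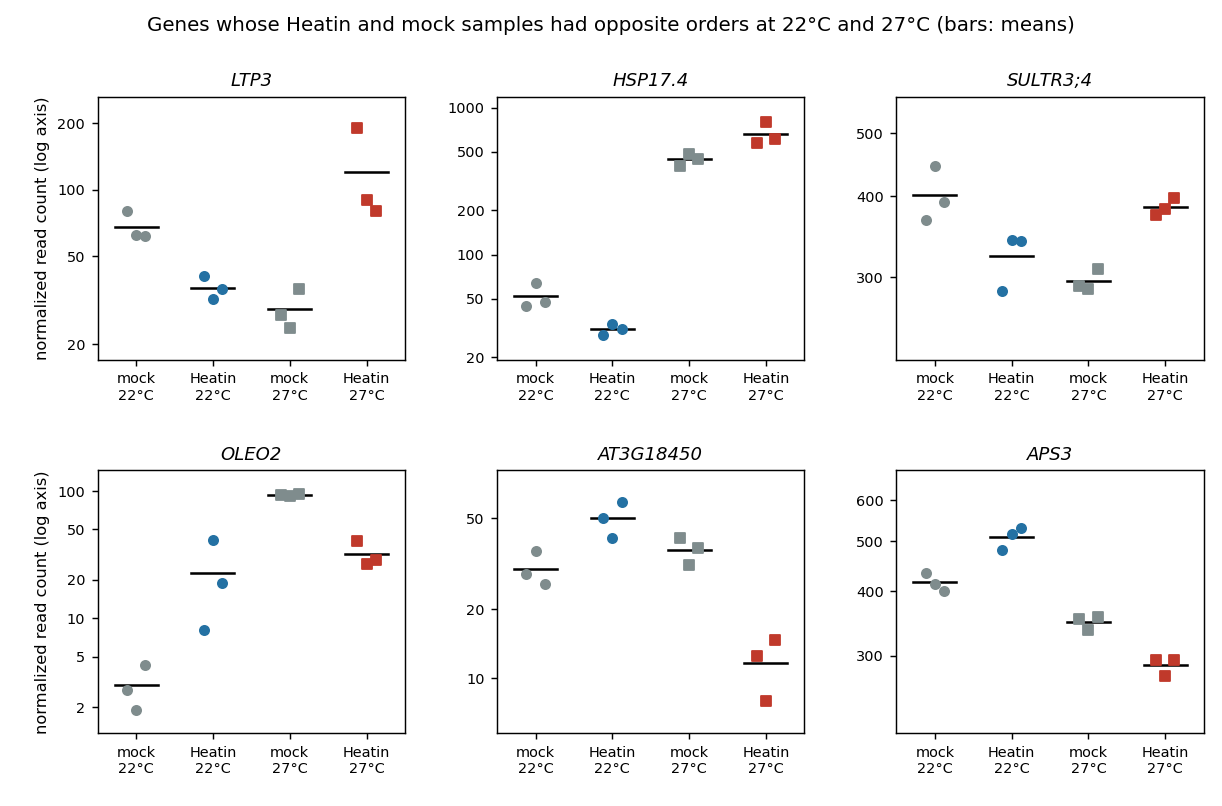
Normalized read counts per 7-day sample (points) and group means (bars) of LTP3, HSP17.4, SULTR3;4, OLEO2, AT3G18450 and APS3, with the 4 groups on the x axis. In LTP3, HSP17.4 and SULTR3;4 the Heatin samples lay below mock at 22°C and above mock at 27°C, and in OLEO2, AT3G18450 and APS3 the order was reversed.

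In specialised metabolism, TGG2 and TGG1, the myrosinases that hydrolyse glucosinolates, were called positive. They were the 2 of 32 glucosinolate genes called, with a list median of 0.08. Of all genes tested, 0.335% were called positive and 0.447% negative. TGG2 gave 2055, 2009 and 2120.4 in mock at 22°C, 850.1, 822 and 1131 with Heatin at 22°C, 621, 741 and 743 in mock at 27°C and 536, 473 and 647 with Heatin at 27°C, with Heatin below mock at 22°C and overlapping ranges at 27°C. Its interaction was 0.80 ± 0.17 (SE; limma, adjusted p = 0.0571), from -1.16 ± 0.12 (adjusted p = 6.79e-05) at 22°C and -0.35 ± 0.12 (adjusted p = 0.14) at 27°C. TGG2 was called in 6 of 12 leave-one-out fits (adjusted p = 0.013 to 0.144) and in 17 of all 26 alternatives. TGG1 gave 35489, 37571 and 37614 in mock at 22°C, 32339.8, 31257 and 33127 with Heatin at 22°C, 27819, 29268 and 29719 in mock at 27°C and 32733, 33737 and 32631 with Heatin at 27°C, below mock at 22°C and above it at 27°C. The interaction of TGG1 was 0.39 ± 0.08 (SE; limma, adjusted p = 0.0488). TGG1 was called in 9 of 12 leave-one-out fits but not without mock 22°C replicate 2 (adjusted p = 0.137), mock 22°C replicate 3 (adjusted p = 0.128) or Heatin 22°C replicate 2 (adjusted p = 0.11). The call of TGG1 was lost with all 24 samples in 1 fit (adjusted p = 0.584). The genes lie near each other on chromosome 5, with 1 gene between them. ST2A, which sulfates 12-hydroxyjasmonate, was the 1 of 32 jasmonate genes called, with 2689, 2247 and 2011 in mock at 22°C, 6085, 5779 and 4717 with Heatin at 22°C, 10724, 12635 and 9869 in mock at 27°C and 15569, 15272 and 13935 with Heatin at 27°C. Heatin upregulated ST2A at both temperatures, more at 22°C (1.26 ± 0.11, adjusted p = 1.42e-05) than at 27°C (0.44 ± 0.11, adjusted p = 0.0379), and its interaction was -0.82 ± 0.16 (SE; limma, adjusted p = 0.0336). ST2A was called in 11 of 12 leave-one-out fits but not without mock 22°C replicate 2 (adjusted p = 0.108). The call of ST2A was lost with all 24 samples in 1 fit (adjusted p = 0.355) and without a variance trend (adjusted p = 0.196).

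The 9 triterpene cluster genes tested held 2 genes called negative, LUP1 and PEN1, where 0.447% of all genes were called negative. These 2 make lupeol and arabidiol rather than the thalianol or marneral that name the list. PEN1 gave 682, 600.5 and 573 in mock at 22°C, 716, 636 and 711 with Heatin at 22°C, 621, 588 and 509 in mock at 27°C and 407, 389.6 and 426 with Heatin at 27°C, with Heatin below mock at 27°C. Its interaction was -0.64 ± 0.12 (SE; limma, adjusted p = 0.0373). PEN1 was called in 10 of 12 leave-one-out fits but not without mock 22°C replicate 2 (adjusted p = 0.118) or mock 27°C replicate 1 (adjusted p = 0.106). The call of PEN1 was lost with all 24 samples in 1 fit (adjusted p = 0.34) and without a variance trend (adjusted p = 0.149). LUP1 gave 528 to 544 in mock and 1299.7 to 1579 with Heatin at 22°C, and 635 to 709 in mock and 1274 to 1378 with Heatin at 27°C, so Heatin was above mock at both temperatures, by 1.43 ± 0.07 (adjusted p = 3.62e-08) at 22°C and 1.00 ± 0.07 (adjusted p = 7.54e-07) at 27°C. The interaction of LUP1 was -0.42 ± 0.10 (SE; limma, adjusted p = 0.0972). LUP1 was called in 1 of 12 leave-one-out fits (adjusted p = 0.0542 to 0.184) and in 10 of all 26 alternatives.

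Among the genes with the largest positive interactions, LTP3, a lipid transfer protein, gave 80.5, 62.3 and 61.8 in mock at 22°C, 40.6, 32.2 and 35.5 with Heatin at 22°C, 27.3, 23.62 and 35.6 in mock at 27°C and 190.2, 90.3 and 80.0 with Heatin at 27°C. Heatin samples lay below mock at 22°C and above mock at 27°C. The interaction of LTP3 was 2.82 ± 0.38 (SE; limma, adjusted p = 0.00336), from -0.89 ± 0.27 (adjusted p = 0.134) at 22°C and 1.93 ± 0.27 (adjusted p = 0.000549) at 27°C. LTP3 was called in all 12 fits that left out 1 library (adjusted p = 0.00307 to 0.0158). The protein kinase gene AT4G13190 gave 36.8, 22.7 and 27.3 in mock at 22°C, 35.2, 34.7 and 35.5 with Heatin at 22°C, 40.9, 38.7 and 53.7 in mock at 27°C and 260.3, 249 and 198 with Heatin at 27°C. Heatin at 27°C was far above the other 3 groups, which ranged from 22.7 to 53.7. The interaction of AT4G13190 was 2.09 ± 0.28 (SE; limma, adjusted p = 0.00336). AT4G13190 was called in all 12 fits that left out 1 library (adjusted p = 0.00417 to 0.0168). ENODL1, an early nodulin-like protein, gave 13.6, 18.9 and 5.75 in mock at 22°C, 17.597, 27.3 and 23.0 with Heatin at 22°C, 6.82, 9.45 and 6.28 in mock at 27°C and 79.5, 95.01 and 65.3 with Heatin at 27°C, an interaction of 2.36 ± 0.49 (SE; limma, adjusted p = 0.0543). ENODL1 was called in 6 of 12 leave-one-out fits (adjusted p = 0.0114 to 0.132) and in 17 of all 26 alternatives.

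AT3G48510, annotated as an AtIII18x5-like protein, gave 39.6, 43.4 and 33.0 in mock at 22°C, 9.48, 18.6 and 8.36 with Heatin at 22°C, 17.7, 26.5 and 26.5 in mock at 27°C and 31.2, 47.5 and 26.9 with Heatin at 27°C. Heatin downregulated it at 22°C (-1.67 ± 0.31, adjusted p = 0.0109) and changed it by 0.54 ± 0.31 (adjusted p = 0.416) at 27°C. The interaction of AT3G48510 was 2.21 ± 0.43 (SE; limma, adjusted p = 0.0398). AT3G48510 was called in 10 of 12 leave-one-out fits but not without mock 22°C replicate 2 (adjusted p = 0.124) or mock 27°C replicate 1 (adjusted p = 0.116). The call of AT3G48510 was lost without a variance trend (adjusted p = 0.13). AK3, an aspartate kinase of amino acid synthesis, gave 12.3, 26.4 and 34.5 in mock at 22°C, 24.4, 8.68 and 25.1 with Heatin at 22°C, 4.09, 0.945 and 0.698 in mock at 27°C and 18.7, 9.5 and 23.7 with Heatin at 27°C, with the lowest counts in mock at 27°C. Its interaction was 3.09 ± 0.74 (SE; limma, adjusted p = 0.0972). AK3 was called in 3 of 12 leave-one-out fits (adjusted p = 0.0665 to 0.222) and in 11 of all 26 alternatives. In mock at 27°C AK3 rested on few reads.

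OLEO2, an oleosin that coats the oil bodies of seeds, had the most negative interaction of the 182 called genes. It gave 2.73, 1.89 and 4.31 in mock at 22°C, 8.12, 40.9 and 18.8 with Heatin at 22°C, 92.8, 90.7 and 95.6 in mock at 27°C and 40.5, 26.9 and 28.6 with Heatin at 27°C. Heatin samples lay above mock at 22°C, where mock rested on few reads, and below mock at 27°C. Its interaction was -3.88 ± 0.59 (SE; limma, adjusted p = 0.00727), from 2.35 ± 0.41 (adjusted p = 0.00794) at 22°C and -1.53 ± 0.41 (adjusted p = 0.0538) at 27°C. OLEO2 was called in all 12 fits that left out 1 library (adjusted p = 0.00127 to 0.0307). The call of OLEO2 was lost with all 24 samples in 1 fit (adjusted p = 0.264). The cupin gene AT2G28490, a family that holds seed storage proteins, gave 8.19, 9.44 and 4.31 in mock at 22°C, 8.12, 32.2 and 18.8 with Heatin at 22°C, 87.3, 91.7 and 120.0 in mock at 27°C and 34.3, 47.5 and 11.4 with Heatin at 27°C, an interaction of -3.03 ± 0.68 (SE; limma, adjusted p = 0.0734). AT2G28490 was called in 3 of 12 leave-one-out fits (adjusted p = 0.0365 to 0.179) and in 11 of all 26 alternatives. The cupin gene AT2G18540 gave 8.62 to 20.8 in mock and 12.2 to 18.8 with Heatin at 22°C, and 79.4 to 115 in mock and 15.6 to 31.0 with Heatin at 27°C, with -1.95 ± 0.46 (SE; limma, adjusted p = 0.0928). AT2G18540 was called in 2 of 12 leave-one-out fits (adjusted p = 0.0899 to 0.184) and in 8 of all 26 alternatives. DELTA-VPE, a vacuolar processing enzyme of the seed coat, gave 26.4 to 40.9 in mock and 22.3 to 41.96 with Heatin at 22°C, and 77.8 to 109 in mock and 18.7 to 42.4 with Heatin at 27°C, with Heatin below mock at 27°C. The interaction of DELTA-VPE was -1.77 ± 0.42 (SE; limma, adjusted p = 0.092). DELTA-VPE was called in 3 of 12 leave-one-out fits (adjusted p = 0.0443 to 0.214) and in 11 of all 26 alternatives. In mock, temperature upregulated OLEO2 by 4.61, AT2G28490 by 3.64, AT2G18540 by 2.59 and DELTA-VPE by 1.59.

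OLEO2 was the 1 called of 26 seed storage, oleosin and late embryogenesis genes, whose median was -0.57, with 0 positive and 5 negative below 0.05 unadjusted. By its symbol, that list also took CRB, a chloroplast RNA-binding protein gene. For comparison, 6.24% of all genes passed unadjusted in each direction, and 0.447% were called negative. The seed storage protein gene CRA1 gave 9.55, 9.44 and 5.75 in mock at 22°C, 33.8, 635 and 6.27 with Heatin at 22°C, 23.2, 41.6 and 172 in mock at 27°C and 101, 380.1 and 32.6 with Heatin at 27°C, and CRU3 gave 4.09, 3.78 and 1.44 in mock at 22°C, 27.1, 717 and 0 with Heatin at 22°C, 15.0, 4.72 and 138 in mock at 27°C and 3.12, 401 and 15.5 with Heatin at 27°C. Heatin 22°C replicate 2 and Heatin 27°C replicate 2 had the highest CRA1 and CRU3 counts, and the part of remnant seed RNA in these results was not tested. Without Heatin 22°C replicate 2, the interaction of OLEO2 was -3.34 (limma, adjusted p = 0.0115).

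AT1G54870, annotated as a Rossmann-fold protein, gave 13.6, 18.9 and 20.1 in mock at 22°C, 13.5, 40.9 and 39.7 with Heatin at 22°C, 199, 207 and 253 in mock at 27°C and 114, 68.1 and 49.8 with Heatin at 27°C, an interaction of -2.24 ± 0.50 (SE; limma, adjusted p = 0.0706). AT1G54870 was called in 2 of 12 leave-one-out fits (adjusted p = 0.00783 to 0.179) and in 10 of all 26 alternatives. AT1G04560, of the AWPM-19-like family, gave 5.46, 9.44 and 15.8 in mock at 22°C, 10.8, 26.04 and 14.6 with Heatin at 22°C, 102, 85.0 and 135 in mock at 27°C and 48.3, 42.8 and 32.6 with Heatin at 27°C, with -2.07 ± 0.50 (SE; limma, adjusted p = 0.0972). AT1G04560 was called in 2 of 12 leave-one-out fits (adjusted p = 0.0588 to 0.222) and in 9 of all 26 alternatives. Both were far higher at 27°C than at 22°C in mock, and the Heatin samples at 27°C lay below mock. The RING/U-box gene AT1G35625 gave 4.09 to 7.55 in mock and 6.2 to 14.6 with Heatin at 22°C, and 30.2 to 45.0 in mock and 9.5 to 15.5 with Heatin at 27°C, with -2.14 ± 0.51 (SE; limma, adjusted p = 0.0994), and it was called in 0 of 12 leave-one-out fits (adjusted p = 0.101 to 0.253) and in 4 of all 26 alternatives. HDK, annotated as a myosin, gave 25.9, 9.44 and 7.18 in mock at 22°C, 17.597, 17.36 and 8.36 with Heatin at 22°C, 12.3, 13.2 and 11.9 in mock at 27°C and 1.56, 0 and 0 with Heatin at 27°C. Heatin at 27°C held 1 read in 1 sample and 0 in the others, so the size depends on the pseudocount, and the interaction of HDK was -3.46 ± 0.71 (SE; limma, adjusted p = 0.0492). HDK was called in 6 of 12 leave-one-out fits (adjusted p = 0.0257 to 0.136) and in 17 of all 26 alternatives. Of the exon windows of HDK, 92.2% were unique.

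AT3G18450, of the PLAC8 family, gave 28.6, 35.9 and 25.9 in mock at 22°C, 50.1, 40.9 and 58.5 with Heatin at 22°C, 40.9, 31.2 and 37.0 in mock at 27°C and 12.5, 7.92 and 14.7 with Heatin at 27°C, Heatin above mock at 22°C and below mock at 27°C. Its interaction was -2.29 ± 0.36 (SE; limma, adjusted p = 0.00919). AT3G18450 was called in all 12 fits that left out 1 library (adjusted p = 0.0101 to 0.0428). The call of AT3G18450 was lost with all 24 samples in 1 fit (adjusted p = 0.127). The GDSL lipase gene AT3G27950 gave 19.1, 15.1 and 18.7 in mock at 22°C, 43.3, 28.5 and 46.0 with Heatin at 22°C, 16.4, 19.8 and 18.8 in mock at 27°C and 7.79, 15.8 and 12.2 with Heatin at 27°C, in the same order. The interaction of AT3G27950 was -1.72 ± 0.40 (SE; limma, adjusted p = 0.092). AT3G27950 was called in 2 of 12 leave-one-out fits (adjusted p = 0.0612 to 0.198) and in 9 of all 26 alternatives. AT2G45360, an ankyrin repeat protein gene, gave 47.2 to 66.8 in mock and 57.0 to 102 with Heatin at 22°C, and 50.2 to 77.8 in mock and 23.4 to 38.0 with Heatin at 27°C, with -1.53 ± 0.35 (SE; limma, adjusted p = 0.0849). AT2G45360 was called in 4 of 12 leave-one-out fits (adjusted p = 0.058 to 0.212) and in 13 of all 26 alternatives. Chosen after the values were seen, the neighbouring amino acid transporter genes UMAMIT20 and UMAMIT17 gave -0.60 ± 0.08 (adjusted p = 0.00297) and -0.98 ± 0.13 (adjusted p = 0.00336), and the tubulins TUB6 and TUA3 gave -0.36 ± 0.07 (adjusted p = 0.0492) and -0.29 ± 0.07 (adjusted p = 0.0994). Leaving out 1 library kept both UMAMIT genes called in all 12 fits, TUB6 in 9 and TUA3 in 0.

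At least 1 gene was called in 14 of the 37 lists and none in the other 23, and list medians ran from -0.60 (extensins and root hair wall genes) to 0.45 (GH3 genes). CYP82C4 was also the 1 called of 11 camalexin and pathogen-induced indole genes. Of 26 ABA genes tested, 7 were positive and 0 negative below 0.05 unadjusted, against 6.24% of all genes in each direction, with a median of 0.22. The 56 genes tested under ribosomal protein symbols gave a median of -0.14 with 1 positive and 13 negative unadjusted, and those symbols also took disease-resistance genes such as RPM1 and RPS4. No library stood apart in the correlations between replicates of a group (0.986 to 0.992). Heatin 22°C replicate 2 did stand apart in its non-unique alignments, which equalled 12.4% of its reads on genes. The other 7-day samples had 7.68% to 9.58%, and the part of this in the results was not tested. Of the 182 called genes, 57 were called in all 12 leave-one-out fits, 3 in none, and none reversed. The number of called genes ranged from 70 without mock 22°C replicate 2 to 186 over these fits. It was 83 without mock 27°C replicate 1, 90 without Heatin 22°C replicate 2, 101 without Heatin 27°C replicate 1, 111 without mock 22°C replicate 3, 114 without Heatin 22°C replicate 1 and 115 without mock 27°C replicate 2.

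**Figure D4:**
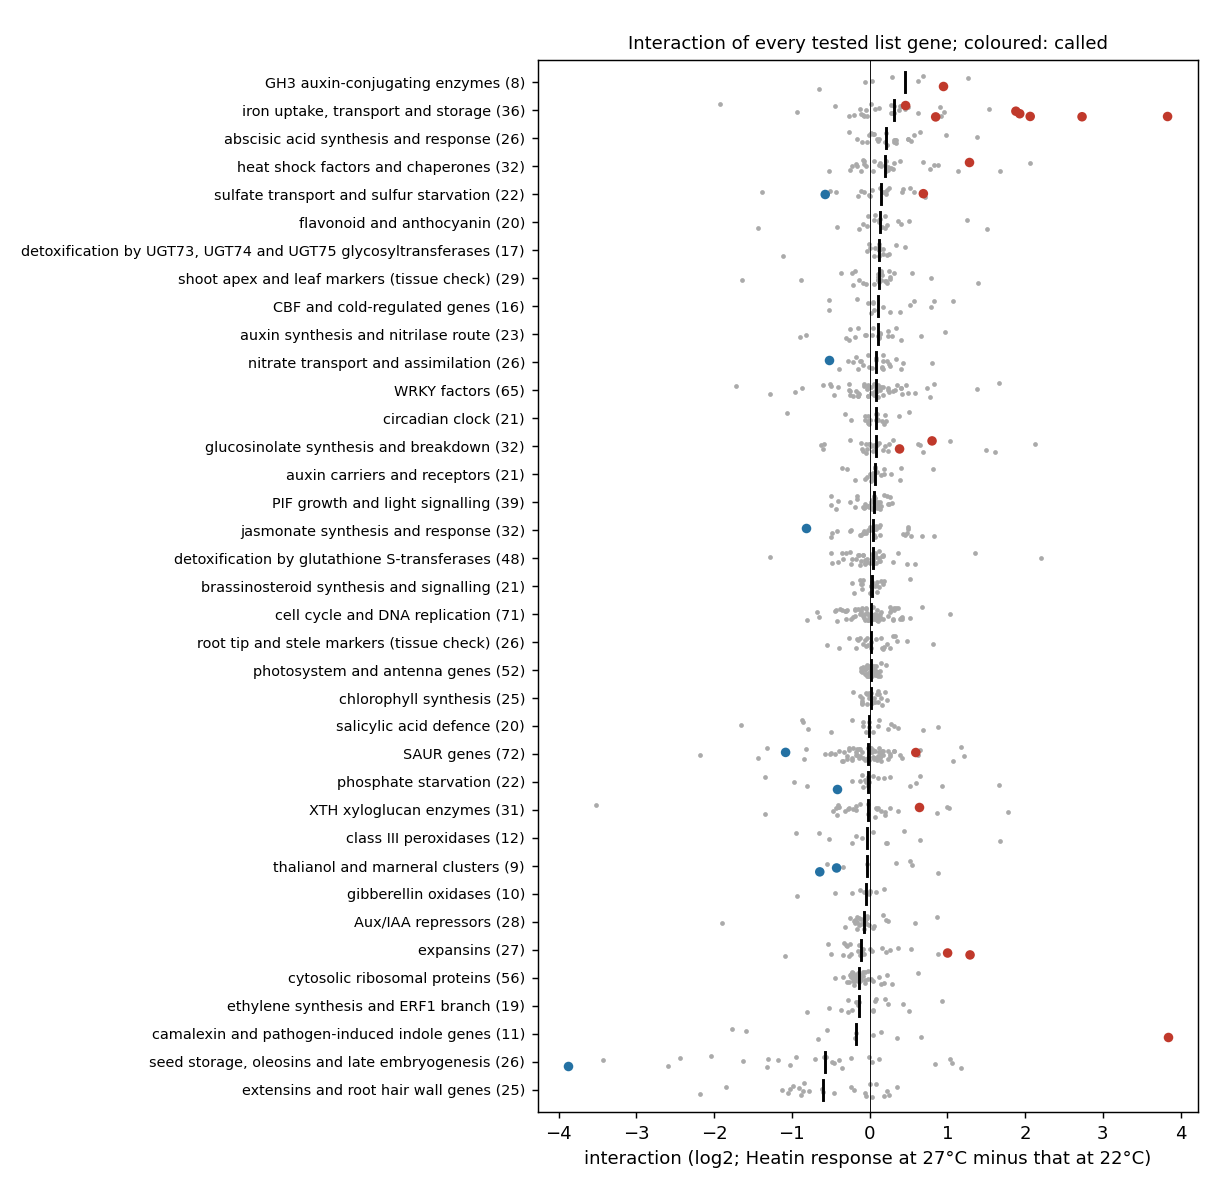
Interaction (log2 scale) of every tested gene in each of 37 lists, with the list's median as a bar, called genes coloured and the rest grey. The iron list reached 3.83 (CYP82C4) with a median of 0.31, and the seed list reached -3.88 (OLEO2) with a median of -0.57.

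At 2 days no gene of 23140 was called by limma (0%), with 304 below 0.05 unadjusted, and edgeR called 0 with 285 unadjusted. The difference between the interactions at 7 and 2 days passed for 2 of 23427 genes (0.00854%), with 901 unadjusted, and edgeR called 0 of them, with 828 unadjusted. LTP3 gave 14.2, 8.41 and 11.4 in mock at 22°C, 33.7, 24.5 and 30.7 with Heatin at 22°C, 46.4, 48.6 and 45.5 in mock at 27°C and 77.3, 81.2 and 86.5 with Heatin at 27°C at 2 days, with an interaction of -0.54 ± 0.28 at that age. The difference for LTP3 was 3.36 ± 0.50 (limma, adjusted p = 0.0138). CYP82C4 had at most 2.04 counts in any 2-day sample and was not tested there alone. Its Heatin response at that age could not be measured. Its difference of 5.12 ± 0.75 (limma, adjusted p = 0.0138) therefore does not show an interaction confined to 7 days. For the other iron genes named, the difference between ages did not pass, so such an interaction was not shown for them either. FRO2 had a 2-day interaction of 0.23 ± 0.27 and NAS2 of 0.69 ± 0.45.

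Promoter windows of 250 bases before to 50 after the start were searched on both strands in 23077 tested genes. The PBE-box CATGTG was in 13% of all windows, 15.4% of those of the 78 positive genes and 20.2% of those of the 104 negative genes. The G-box CACGTG was in 8.46%, 11.5% and 14.4%. Site II, TGGGCC, was in 4014 of all 23077 windows, in 7.69% of positive and 6.73% of negative, and the evening element AAATATCT in 5.67%, 1.28% and 1.92%. The auxin response element TGTCTC was in 13.9%, 15.4% and 13.5%. Matches are a description and were not tested.

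Counting did not use strand, so reads of a gene that overlaps another on the opposite strand cannot be told apart. This touches AK3, HSP17.4, BHLH101, SULTR3;4, LUP1, NRT1.5, APS3, AT2G45360, DELTA-VPE, AT1G35625, OLEO2 and SKOR, each of which overlaps a gene on the other strand. AT4G13190 overlaps AT4G13195 and TUB6 overlaps AT5G12240 on the same strand.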

How the data were processed

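Whole Col-0 seedlings were sequenced (TruSeq libraries, single-end reads of 50 bases). The authors aligned the reads to TAIR10 with TopHat2 and Bowtie, counted them per gene with HTSeq without strand after removing CPuORF entries, and deposited DESeq depth-adjusted values, a signal that is a whole multiple of what 1 read is worth in its sample (100% of values whole). From these values, log2(value + 1) was tested in limma 3.58.1 (R 4.3.3; lmFit and eBayes with a variance trend, 1 mean per group, 12 samples of 7 days, mean value of at least 1). Genes were called at a Benjamini-Hochberg adjusted p below 0.1 over 23252 genes.

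Named by rule were the 12 most positive and 12 most negative called genes with a mean of at least 10. Also named were up to 4 called genes of each of 37 lists at that mean, and GH3.3. Other genes, such as list members short of the threshold, were added outside this rule. Only some of these are marked as chosen after their values were seen. Members and lists were chosen with earlier results of these data known. Symbols, positions and sequences came from RefSeq TAIR10.1, which held 32835 of 33540 identifiers; 61 list entries were not matched to 1 gene. Alternatives were pseudocounts, filters, scalings, edgeR 4.0.16, DESeq2 1.42.0, voom, a replicate block and leaving out each library. In simulated data of 23036 genes, limma recovered 76% of 2-fold and 94% of 4-fold interactions, and 16 of 186 calls were unchanged genes. The changed genes there had a mean of at least 10, other genes had no Heatin response, and samples were drawn independently. These rates are therefore not the recovery or error rates of the real calls. Counting error limits genes with few reads.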

Additional observations from a re-analysis of the deposited data

Results flagged for a closer look

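The following responses to Heatin differed between 22°C and 27°C by the limma test of the difference, as values at 27°C minus 22°C on the log2 scale. Among iron genes they were 3.83 for CYP82C4, 2.73 for NAS2, 2.07 for BHLH100, 1.93 for IRT1, 1.88 for FRO2 and 0.85 for BHLH101. Auxin-related genes gave 0.95 for GH3.3, 0.59 for AT5G53590 and -1.08 for AT4G34790. Cell wall genes gave 2.17 for PME61, 1.93 for CEL3, 1.29 for EXPB3, 1.00 for EXPA4, 0.63 for XTH18 and -1.48 for AGP3. Nutrient and sulfur genes gave 0.69 for SULTR3;4, -0.43 for PHT1;1, -0.52 for NRT1.5 and -0.57 for APS3. Values in specialised metabolism and stress were 1.28 for HSP17.4, 0.80 for TGG2, 0.39 for TGG1, -0.42 for LUP1, -0.64 for PEN1 and -0.82 for ST2A. The oleosin gene OLEO2 gave -3.88, the cupin genes AT2G28490 and AT2G18540 gave -3.03 and -1.95, and DELTA-VPE gave -1.77. The remaining named genes gave 3.09 for AK3, 2.82 for LTP3, 2.36 for ENODL1, 2.21 for AT3G48510, 2.09 for AT4G13190, -3.46 for HDK, -2.29 for AT3G18450, -2.24 for AT1G54870, -2.14 for AT1G35625, -2.07 for AT1G04560, -1.72 for AT3G27950 and -1.53 for AT2G45360.

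The interaction at 7 days exceeded that at 2 days, by the limma test of the difference between ages, by 5.12 for CYP82C4 and by 3.36 for LTP3. CYP82C4 was nearly absent at 2 days, with at most 2.04 normalized read counts in a sample, so its Heatin response at that age could not be measured.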

How the results depend on the processing

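The count of interaction genes at 7 days (182, of which 78 positive and 104 negative) was 88 (40 and 48) at an adjusted p below 0.05, 294 (138 and 156) with DESeq2, 59 (32 and 27) without a variance trend and 40 (24 and 16) when all 24 samples shared 1 fit. Leaving out 1 library gave 70 to 186 calls, 34 to 90 positive and 36 to 107 negative. With the replicate block it was 446 (203 and 243), holding all 182 genes. Samples with the same replicate number had a mean correlation of deviations of 0.0424, with 1 of 18 pairs over 0.1. Samples with different numbers had a mean of -0.0212, with 1 of 36 pairs over 0.1. In all, 8 of 12 samples correlated best with their own number. The labels do not say what the numbers share, and the main fit held no replicate block. Whether the numbers pair the samples was not tested. The pseudocounts 0.5 and 5, no filter, a mean of at least 10, TMM scaling, quantile normalization, edgeR, voom and robust variance gave 139 to 200 calls, of which 132 to 181 were also called in the first fit. With edgeR, 0 genes differed between ages in place of 2 with limma, with 828 below 0.05 unadjusted. No named gene reversed under any of the 26 alternatives, and APS3, AT4G13190, CYP82C4, LTP3 and NAS2 were called in all of them. The cause of these changes was not tested. In the 7-day library with the fewest reads on genes, 1 read was worth 2.09 normalized read counts, which limits genes of few reads.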

Other observations

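Among called genes outside the lists, chosen after their values were seen, TPS12 and CYP71A19, a terpene synthase and a cytochrome P450 that lie next to each other on chromosome 4, had interactions of 1.84 and 1.304 on the log2 scale (limma, adjusted p = 0.0706 and 0.0689). Each overlaps a gene on the other strand, and counting did not use strand. BGLU18, a beta-glucosidase that releases abscisic acid from its glucose ester, had an interaction of 1.41 ± 0.26 (SE; limma, adjusted p = 0.0281). MYB96, a factor of cuticular wax synthesis, had 0.63 ± 0.15 (limma, adjusted p = 0.0972), and WSD1, a wax ester synthase, 4.02 ± 0.89 (limma, adjusted p = 0.0706) at a mean below 10 normalized read counts. TED6, a protein of xylem vessel walls, had -0.60 ± 0.09 (limma, adjusted p = 0.00703), and MAP18, a microtubule-associated protein, -0.71 ± 0.12 (limma, adjusted p = 0.0143). The neighbours UMAMIT20 and UMAMIT17 were the adjacent negative genes with the smallest adjusted p-values, 0.00297 and 0.00336 (limma). Leaving out each library in turn kept BGLU18, TED6, MAP18, UMAMIT20 and UMAMIT17 called in all 12 fits, TPS12 in 5, CYP71A19 and MYB96 in 4 and WSD1 in 2.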
